A study of Homo sapiens with 6 samples.

Results

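Activins and TGF-betas are secreted dimers of one protein family, and their genes were followed here in MDA-MB-468 cells given a nitric oxide donor. The 10 genes described are INHBA, INHBB and TGFB1 (ligand subunits), FST and FSTL3 (extracellular antagonists), ACVR1B, ACVR2A and TGFBR2 (receptors), and SMAD4 and SMAD7 (signal transducers). They were taken by name from the 45019 rows of each deposited table, and all 10 were found. The set was chosen on values of these same libraries, since INHBA was among the largest rises under DETA/NO. Its members' differences between the groups are therefore given as a description, and the calls that the fit over all genes made among them are only counted, beside those of all genes.

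MDA-MB-468 is an established line of basal-like breast cancer, negative for the estrogen and progesterone receptors and for HER2 amplification (triple-negative). DETA/NO is a donor from which nitric oxide is set free over many hours. The treated group received 100 µM DETA/NO for 10 days, with cells collected, pooled within each replicate and replated every 48 h, and with 4 h to adhere before each dose. The other group was untreated, and no genetic change beyond those the line carries is given for either group. Each group had 3 labelled samples of total RNA. The tables of DETA/NO samples 1 and 2 were identical in all values and stand here for 1 library, which leaves 2 DETA/NO libraries to compare with 3 untreated libraries. The series asks how nitric oxide, through the m6A demethylase FTO, goes together with the transcriptome. Whole reads recovered from the tables came to 28897422 and 34210950 in the DETA/NO libraries and 32872785 to 34637343 in the untreated libraries. Genes that mark the line (EGFR, KRT5, KRT17, KRT8, KRT18, EPCAM, CDH1, FOXC1) were abundant in every library, and PGR, absent from triple-negative cells, had at most 5.73 normalized reads. ESR1, which a triple-negative line should hold at a low level, had 925 and 1093 normalized reads under DETA/NO, against 823 to 846 in untreated cells.

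Activin A is a dimer of the protein encoded by INHBA, and activin B is a dimer of that encoded by INHBB. Both bind a type II receptor (ACVR2A or ACVR2B), which recruits and phosphorylates the type I receptor ACVR1B. TGF-beta uses TGFBR2 and TGFBR1 in the same way. The type I receptors phosphorylate SMAD2 and SMAD3, which join SMAD4 and enter the nucleus, while SMAD7 is an inhibitor induced by the pathway. Follistatin (FST) and its relative FSTL3 bind activins outside the cell and block them. In mammary epithelium the pathway is known for growth arrest and for induction of matrix genes.

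INHBA lies on chromosome 7 at 41667168 to 41705834 on the minus strand (GRCh38, GENCODE release 29). Bases before its RefSeq start are shown because INHBA is the member whose level differed most between the groups. The window is chr7:41703109-41703340 of RefSeq GRCh38.p14, minus strand, from 250 to 19 bases before the start. The nearer bases lie in an annotated exon and are left out. The window lies within the GENCODE span of INHBA, whose upstream end is beyond it. It also lies within the span of the antisense gene INHBA-AS1 (41693916 to 41779388). Capitals mark the letters TGANGTCA, the core of a cyclic AMP response element.
INHBA: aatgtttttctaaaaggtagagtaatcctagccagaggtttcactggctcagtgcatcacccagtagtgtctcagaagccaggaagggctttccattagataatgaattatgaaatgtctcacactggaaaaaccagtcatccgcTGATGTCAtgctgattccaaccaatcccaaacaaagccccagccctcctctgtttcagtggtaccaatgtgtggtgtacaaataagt

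The match begins 105 bases before the start. Of 35116 RefSeq promoters, 6.87% held TGANGTCA within 250 bases before the start on either strand. The AP-1 letters TGANTCA were in 6.57% of them and the SMAD letters CAGACA in 13.6%. Neither of the AP-1 and cyclic AMP patterns contains the other. All 10 members had a promoter in the RefSeq table, with 14 starts in all. FST held 1 AP-1 match, 160 bases before its start, and ACVR1B held 1 SMAD match at 1 of its starts. No other member held any of the 3 motifs in this window.

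INHBA showed the widest separation of the groups among the members. It had 6097 and 5738 normalized reads in the DETA/NO libraries, against 933, 817 and 781 in the untreated libraries. These are the reads of a library divided by the authors' scaling factor. The lower DETA/NO library was 6.15 times the highest untreated one, so the groups lay far apart. The means were 5917 ± 253 (SD, n = 2) under DETA/NO and 844 ± 79.3 (SD, n = 3) without it, a ratio of 7.01. On the scale of log2(normalized reads + 1), which understates the change of low genes, the fold change was 2.81 ± 0.064 (SE of the limma fit). That placed INHBA 15th from the top of 16409 tested genes, and 7th of the 11740 whose higher group averaged at least 100. In bulk RNA, more cells that express a gene and more RNA per cell cannot be told apart. The antisense gene INHBA-AS1 overlaps 30.8% of the span of INHBA but shares no exon base with it. It had 42.1 and 11.4 normalized reads under DETA/NO and 2.77 to 8.83 in untreated cells. Whether the authors counted by strand is not given in the sources used here, so reads of the pair are uncertain, though INHBA-AS1 had far fewer.

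INHBB, on chromosome 2 at 120346143 to 120351808 on the plus strand, differed by much less. It had 2471 and 2590 normalized reads in the DETA/NO libraries, against 1871, 1893 and 2181 in the untreated libraries, a log2 fold change of 0.36 ± 0.057. Neither group overlapped the other, but untreated library 3 came within 1.13-fold of the lower of them. TGFB1, the TGF-beta ligand first described, lies on chromosome 19 at 41301587 to 41353911 on the minus strand. It had 525 and 519 normalized reads under DETA/NO, against 421, 454 and 429 in untreated cells (log2 fold change 0.27 ± 0.074), again with no overlap. Spans of other genes cover 45.4% of TGFB1, so part of its reads may not have been counted.

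**Figure D1:**
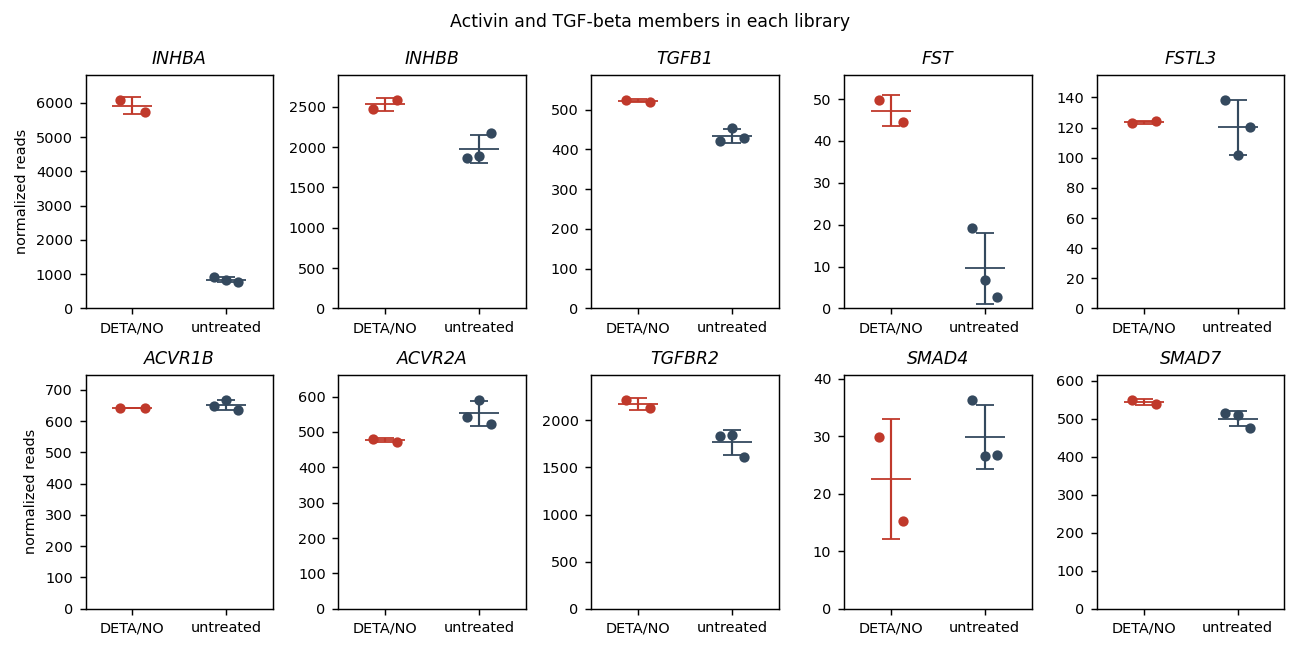
Normalized reads of the 10 members (linear axes from 0, 1 panel a gene), with a point for each library and a bar for the mean ± SD (n = 2 DETA/NO and n = 3 untreated). INHBA and FST show the widest gaps, at 5738 or more against 933 or less and at 44.6 or more against 19.1 or less; FSTL3, ACVR1B and SMAD4 overlap between the groups.

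The antagonists did not move as a pair. FST, on chromosome 5 at 53480409 to 53487134 on the plus strand, had 49.9 and 44.6 normalized reads under DETA/NO, against 19.1, 6.87 and 2.77 in the untreated libraries. The DETA/NO libraries lay above all untreated ones and close to each other, while the untreated libraries ranged almost 7-fold among themselves. The counts behind them were 45 and 47 reads under DETA/NO and 20, 7 and 3 in untreated cells, and counting error alone gave untreated library 3 a 95% exact Poisson interval of 0.619 to 8.77 reads. The mean of FST was 4.93 times higher under DETA/NO (47.2 ± 3.70, n = 2, against 9.58 ± 8.50, n = 3), and its log2 fold change of 2.52 ± 0.635 had the largest SE of the members. It was 3.14, 2.47 and 1.94 without untreated library 1, 2 or 3. The untreated mean of FST lies under the filter of 10, which it passed through the DETA/NO libraries. FSTL3, on chromosome 19 at 676365 to 683399 on the plus strand, had 123.0 and 124.4 normalized reads under DETA/NO, against 138.6, 102.0 and 120.1 without it. The untreated libraries lay on both sides of the DETA/NO ones, and the log2 fold change of 0.05 ± 0.141 turned to -0.06 without untreated library 2.

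Of the receptors, TGFBR2 was higher under DETA/NO, ACVR2A was lower and ACVR1B overlapped. TGFBR2, the type II receptor of TGF-beta, lies on chromosome 3 at 30606502 to 30694142 on the plus strand. It had 2216 and 2128 normalized reads in the DETA/NO libraries, against 1836, 1846 and 1615 in the untreated libraries (log2 fold change 0.30 ± 0.050). ACVR2A, a type II activin receptor on chromosome 2 at 147844517 to 147930826 on the plus strand, had 481 and 473 normalized reads under DETA/NO, against 543, 591 and 523 without it (log2 fold change -0.21 ± 0.073). Each DETA/NO library lay below each untreated one. The log2 fold change of ACVR2A was -0.16 without untreated library 2, -0.22 without DETA/NO library 1 and 2, and -0.20 without DETA/NO library 3. ACVR1B, the type I activin receptor on chromosome 12 at 51951667 to 51997078 on the plus strand, had 643 normalized reads in both DETA/NO libraries, against 648, 668 and 636 in the untreated libraries. Its log2 fold change was -0.02 ± 0.064, and it was 0.00200 without untreated library 2.

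SMAD7, the inhibitory SMAD on chromosome 18 at 48919853 to 48952052 on the minus strand, had 550 and 539 normalized reads under DETA/NO, against 515, 509 and 477 without it. The groups did not overlap, but the lower DETA/NO library was only 1.05 times the highest untreated one, and the log2 fold change was 0.12 ± 0.071. SMAD4, the SMAD shared by the activin, TGF-beta and BMP branches, lies on chromosome 18 at 51028394 to 51085045 on the plus strand. It had 29.9 and 15.2 normalized reads under DETA/NO, against 36.3, 26.5 and 26.8 in untreated cells, from 27 and 16 reads under DETA/NO and 38, 27 and 29 reads without it. DETA/NO library 1 and 2 lay among the untreated libraries and DETA/NO library 3 lay below them. The 95% exact Poisson interval of DETA/NO library 3 was 9.15 to 26.0 reads and that of untreated library 1 was 26.9 to 52.2 reads. The log2 fold change was -0.45 ± 0.289 with all libraries, 0.0172 without DETA/NO library 3 and -0.92 without DETA/NO library 1 and 2, so 1 library decided its sign and size. A readthrough gene, AC091551.1, overlaps 52.5% of the span of SMAD4, and it had 0 reads under DETA/NO and at most 2.94 normalized reads in untreated cells. All exon bases of AC091551.1 lie within spans of other genes, so these values cannot be read as its level.

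By the test run over all genes, 5 of the 10 members (INHBA, INHBB, TGFB1, FST and TGFBR2) were called higher and 1 (ACVR2A) lower at a Benjamini-Hochberg adjusted p under 0.05 in limma. Of all 16409 tested genes, 43.4% were called, 21.7% higher and 21.7% lower. The DETA/NO libraries lay above all untreated ones in 6 members and below them in 1, where 61.2% of all tested genes had no overlap, 30.4% above and 30.8% below. The members' median log2 fold change was 0.19, beside a median of -0.00016 over all tested genes. The contrast chose the members, and nothing is read from these counts.

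To set genes side by side, normalized reads were divided by the exon length outside the spans of other genes, in kb. All annotated exons of a gene were joined for that length, so a gene with much annotated exon gets a lower level. That length was used because genes lying wholly within other genes' spans were nearly always listed at 0: 97.4% of 1774 such protein-coding genes, against 14.2% of 7062 with no overlap. Under DETA/NO the order of the level per kb was INHBA (829 ± 35.5, SD, n = 2), INHBB (790 ± 26.2), TGFBR2 (462), TGFB1 (297), ACVR1B (113), SMAD7 (108), ACVR2A (78.5), FSTL3 (40.3), FST (15.9) and SMAD4 (2.73). The order in untreated cells was INHBB (619), TGFBR2 (375), TGFB1 (247), INHBA (118), ACVR1B (114), SMAD7 (99.4), ACVR2A (90.9), FSTL3 (39.2), SMAD4 (3.61) and FST (3.23). Over the untreated libraries the ranges overlapped between the neighbours INHBA and ACVR1B, SMAD7 and ACVR2A, and SMAD4 and FST, and not between the other neighbours. INHBA thus stood at the top under DETA/NO, where its range overlapped that of INHBB, and below INHBB, TGFBR2 and TGFB1 in untreated cells. FST lay above SMAD4 in both DETA/NO libraries and in untreated library 1.

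Ratios of subunit transcripts follow from the values of INHBA, which chose the set, and are given as a description. The level of INHBA per kb was 1.05 ± 0.0797 times that of INHBB under DETA/NO and 0.193 ± 0.0315 times in untreated cells. INHA, which encodes the inhibin alpha subunit that turns an activin into an inhibin, was at 95.5 per kb under DETA/NO and 104 without it. INHBA made up 48.4% ± 1.79 of the summed levels of INHBA, INHBB and INHA under DETA/NO and 14.1% ± 1.96 in untreated cells. Set against its antagonists, INHBA per kb was 14.7 ± 0.389 times the sum of FST and FSTL3 under DETA/NO and 2.83 ± 0.353 times in untreated cells.

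**Figure D2:**
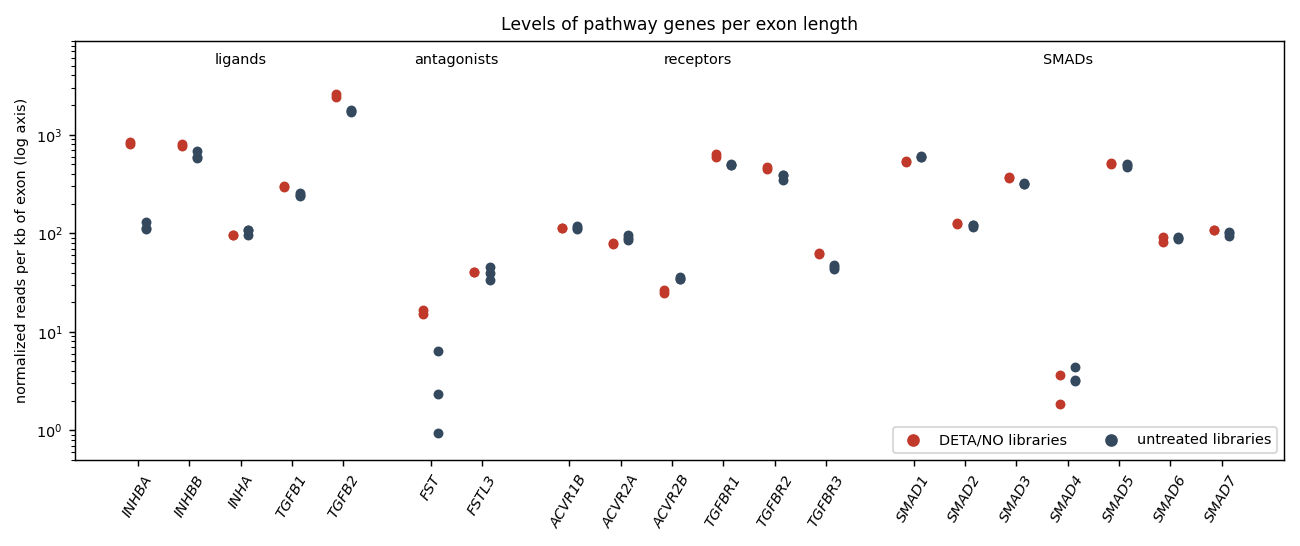
Normalized reads per kb of exon outside other genes' spans (log axis) for ligands, antagonists, receptors and SMADs, 1 point a library, DETA/NO left of untreated. INHBA stands level with INHBB under DETA/NO and with ACVR1B in untreated cells, and SMAD4 lies far below the other SMADs plotted (SMAD9, lower still, is not plotted).

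SMAD4 and SMAD9 were the lowest of the SMADs. The level of SMAD4 per kb was 2.73 ± 1.26 under DETA/NO and 3.61 ± 0.676 in untreated cells, and only 3.52% of 14558 tested genes with a length had a lower untreated level. SMAD9, of the BMP branch, stood at 1.91 per kb under DETA/NO and 1.95 in untreated cells. SMAD2, a partner of SMAD4, stood at 126 per kb under DETA/NO and 120 without it, and SMAD3, its other partner, at 368 and 318. Their joined exons span 36366 and 9113 bases. In normalized reads SMAD2 was above SMAD3, at means of 4585 against 3290 under DETA/NO and 4360 against 2836 without it. Per kb, SMAD2 was 52.1 ± 25.3 times SMAD4 under DETA/NO and 33.9 ± 5.26 times in untreated cells, with overlapping libraries. MDA-MB-468 is known for a homozygous deletion of SMAD4 and for loss of RB1, and RB1 stood at 12.01 per kb under DETA/NO and 16.2 without it. Whether the few SMAD4 reads come from its own transcript was not tested.

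The genes on both sides of SMAD4 on chromosome 18 had both high and low levels. On the left, ME2, a mitochondrial malic enzyme, stood at 184 per kb under DETA/NO and 160 in untreated cells. On the right, MEX3C, which encodes an RNA-binding ubiquitin ligase, stood at 411 and 391. ME2 starts 149.7 kb before the start of SMAD4 and MEX3C starts 146.2 kb after it. ELAC1, between ME2 and SMAD4, was listed at 0 in all 5 libraries. The readthrough gene covers 99.9% of its span, so that 0 cannot be read as its level. Farther out, SKA1 (327 under DETA/NO and 329 without it) and MBD2 (816 and 867) were abundant. MAPK4 (1.92 and 2.66) and MRO (0.458 and 0.685) were lower than SMAD4.

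**Figure D3:**
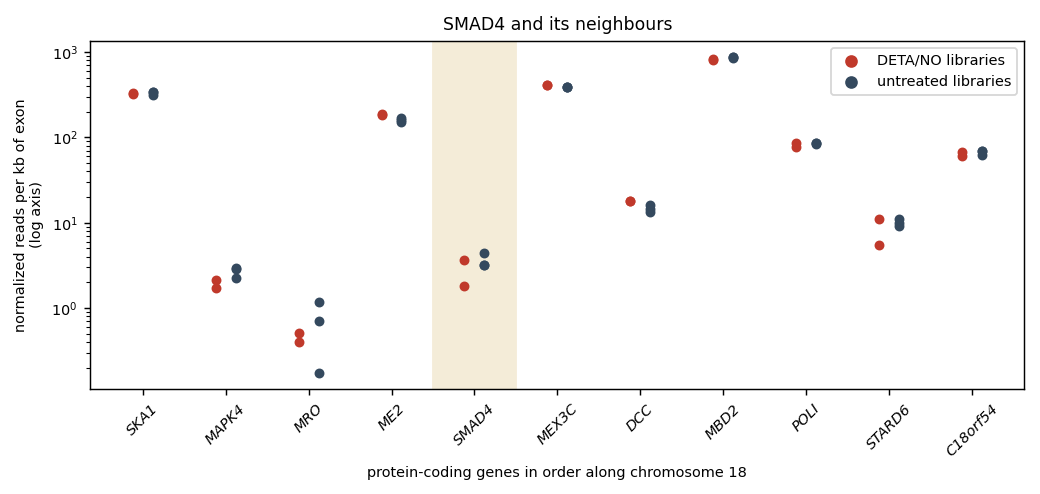
Normalized reads per kb of exon (log axis) of SMAD4, shaded, and the protein-coding neighbours on each side that have exon bases outside other genes, in order along the chromosome, 1 point a library, DETA/NO left of untreated. ME2 and MEX3C, next to SMAD4 in this plot, lie between 152 and 415 per kb in all libraries.

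Another 84 genes of the pathway were listed by role, and 56 of them had a mean of at least 10 and were tested. Of the others, 11 were at 0 in every library. By limma, 18 of the 56 rose and 7 fell, 44.6% called beside 43.4% of all tested genes, with a median log2 fold change of 0.07. TGFB3, GDF1, MSTN, VASN, NRROS and TDGF1 were listed at 0 with 86.8% to 100% of their span overlapped by other genes, which may not speak to their expression.

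Among the other ligands, 4 of 15 tested rose and 1 fell, 33.3% called beside 43.4% of all tested genes. TGFB2, the most abundant ligand of the family here, had 9835 and 9129 normalized reads under DETA/NO, against 6764, 6603 and 6420 in untreated cells (log2 fold change 0.52 ± 0.034, adjusted p = 8.3e-14). Per kb it stood 8.45 ± 0.378 times above TGFB1 under DETA/NO and 7.07 ± 0.371 times in untreated cells. BMP2, a bone morphogenetic protein, had 960 and 922 normalized reads under DETA/NO, against 707, 657 and 635 without it (0.50 ± 0.062, adjusted p = 7.7e-08). GDF15, a stress-induced member of the family, had 115 and 95.9, against 45.9, 50.03 and 42.5 (1.17 ± 0.178, adjusted p = 2.4e-06). BMP3 fell, with 68.7 and 108 normalized reads under DETA/NO, against 183, 214 and 182 (-1.15 ± 0.154, adjusted p = 1.7e-06). BMP8B rose by 0.30 (adjusted p = 0.031), but its adjusted p was 0.0572 and 0.0687 without untreated library 2 or 3. Its log2 fold change was 0.21 without DETA/NO library 3. Spans of other genes hold 74.2% of its exon bases, so its reads are uncertain. INHA was not called, with 141 and 140 normalized reads under DETA/NO, against 141, 158 and 158 without it.

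Of 10 other receptors and co-receptors tested, 3 rose and 2 fell, with values on both the TGF-beta and the activin side. That was 50% called, beside 43.4% of all tested genes. TGFBR1, the type I receptor that pairs with TGFBR2, had 4113 and 4327 normalized reads under DETA/NO, against 3492, 3381 and 3406 without it (log2 fold change 0.30 ± 0.036, adjusted p = 3.4e-08). TGFBR3, the co-receptor betaglycan, rose by 0.44 ± 0.076 (adjusted p = 1.5e-05). ACVR2B, the second type II activin receptor, fell, with 379 and 406 normalized reads under DETA/NO, against 529, 549 and 526 (-0.44 ± 0.074, adjusted p = 9.7e-06). Both DETA/NO libraries thus lay below all untreated ones for ACVR2A and for ACVR2B, and above them for TGFBR1, TGFBR2 and TGFBR3. ACVR2A and TGFBR2 are members, chosen on this contrast, and the activin receptor ACVR1B overlapped between the groups. Of the 10 other receptors tested, 5 lay above all untreated libraries and 3 below. Of all tested genes, 61.2% had no overlap. ENG, the co-receptor endoglin, rose by 0.27 (adjusted p = 0.0071; 0.134 without DETA/NO library 3). BMPR2, a type II receptor of BMPs, had -0.11 on the log2 scale (adjusted p = 0.0096). Its adjusted p was 0.0566 without untreated library 1, 0.0708 without untreated library 2 and 0.128 without the shared DETA/NO library. ACVR1 (0.08, adjusted p = 0.18) and BMPR1A (-0.07, adjusted p = 0.17) were not called. BAMBI, a decoy receptor, had -0.22 ± 0.078 (adjusted p = 0.059), and 5.4e-05 and 0.0056 without untreated library 1 or 3.

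Of 12 other antagonists and carriers tested, 3 rose and 2 fell, 41.7% called beside 43.4% of all tested genes. SOSTDC1, a secreted BMP and WNT antagonist, had 192 and 216 normalized reads under DETA/NO, against 651, 711 and 655 in untreated cells (log2 fold change -1.72 ± 0.081, adjusted p = 1.4e-17). Of the 4 latent TGF-beta binding proteins, LTBP3 rose by 0.33 ± 0.047 (adjusted p = 1.2e-05) and LTBP1 had -0.49 ± 0.047 (adjusted p = 4.7e-10). LTBP4 (0.02, adjusted p = 0.86) and LTBP2 (-0.25, adjusted p = 0.33) were not called. GREM1 and CHRDL1, both BMP antagonists, rose by 1.41 and 0.86 at low levels (means of 59.3 and 62.3 normalized reads under DETA/NO, against 21.6 and 34.0), and they are named because their values were seen.

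SMADs and their regulators held 19 tested genes, of which 8 rose and 2 fell, most by small amounts. That was 52.6% called, beside 43.4% of all tested genes. NEDD4L, a ubiquitin ligase that acts on activated SMAD2 and SMAD3, had 3436 and 3380 normalized reads under DETA/NO, against 2261, 2177 and 2233 without it (log2 fold change 0.62 ± 0.038, adjusted p = 1.5e-14). TGIF1, a corepressor of SMAD-driven transcription, rose by 0.40 ± 0.029 (adjusted p = 8.7e-13), and SMAD3 by 0.21 ± 0.037 (adjusted p = 1.5e-05). PMEPA1, a membrane inhibitor of the pathway, rose by 0.20 (adjusted p = 0.00011). SMURF1, a ubiquitin ligase of SMADs and receptors, rose by 0.24 (adjusted p = 0.0029), and by 0.19 without DETA/NO library 1 and 2. Spans of other genes hold 72.3% of the exon bases of SMURF1, so its reads are uncertain. SMAD1, of the BMP branch, had -0.16 ± 0.036 (adjusted p = 0.00051), and SKIL, a SMAD corepressor, had -0.14 (adjusted p = 0.0019; 0.0558 without DETA/NO library 1 and 2). With DETA/NO library 1 and 2 left out, 5 of the 19 rose, and likewise 5 with DETA/NO library 3 left out.

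**Figure D4:**
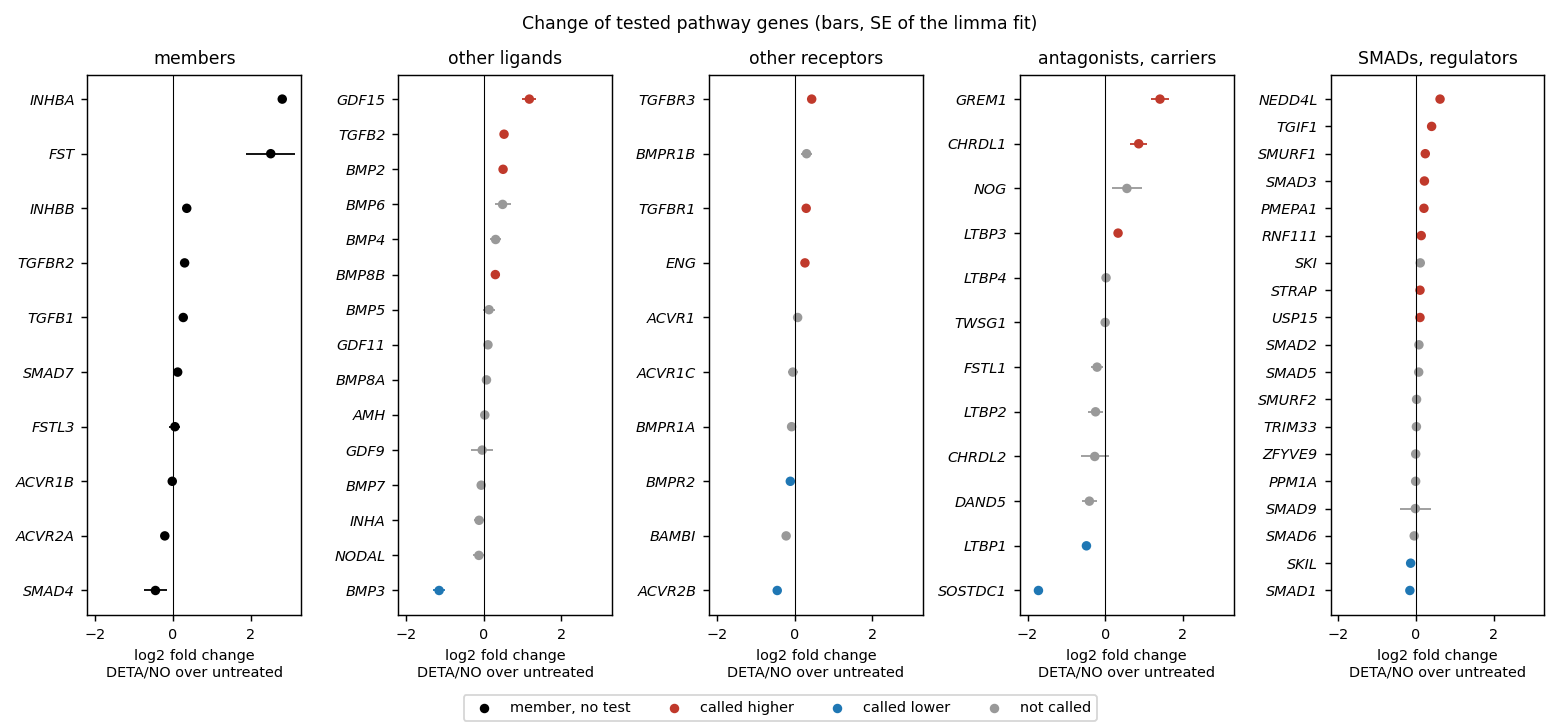
Log2 fold change, DETA/NO over untreated, of the 10 members and of each tested gene of the 4 other role lists, with bars for the SE of the limma fit. Red and blue points passed an adjusted p of 0.05, grey points did not, and the members in black carry no test; INHBA at 2.81 and FST at 2.52 lie farthest to the right and SOSTDC1 at -1.72 farthest to the left.

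Genes known to respond to activin or TGF-beta moved in both directions. Of 25 listed, 20 were tested, and 9 rose and 4 fell, 65% of those tested beside 43.4% of all tested genes, with a median log2 fold change of 0.11. THBS1, the matrix protein thrombospondin 1, had 2954 and 2913 normalized reads under DETA/NO, against 723, 720 and 626 in untreated cells (log2 fold change 2.09 ± 0.057, adjusted p = 4.6e-22). TGFBI, a matrix protein named for its induction by TGF-beta, had 2802 and 3056, against 920, 862 and 775 (1.78 ± 0.061, adjusted p = 4.1e-15). No untreated library came near the DETA/NO libraries in either gene. Spans of other genes cover 64.4% of THBS1, so its reads are uncertain.

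COL1A1, a collagen chain, had 842 and 836 normalized reads under DETA/NO, against 567, 601 and 629 in untreated cells (0.49 ± 0.064, adjusted p = 2.2e-07). SNAI1, a repressor of epithelial genes, rose by 0.61 (adjusted p = 0.0020 in limma, 0.0563 without its trend and robust options). CDKN1A, a cell cycle inhibitor, rose by 0.68 (adjusted p = 0.040), but its adjusted p was 0.0860 and 0.0591 without untreated library 1 or 2, and 0.126 and 0.170 without DETA/NO library 1 and 2 or 3. COL4A1, a basement membrane collagen, rose by 0.45 (adjusted p = 0.026), with 0.0824, 0.0516 and 0.274 without untreated library 2, untreated library 3 or DETA/NO library 1 and 2. SNAI1, CDKN1A and COL4A1 are named because their values were seen. LTBP3 and PMEPA1, described above, also rose. Matrix genes also fell: FN1, fibronectin, had 2668 and 2558 normalized reads under DETA/NO, against 3854, 3676 and 3444 without it (-0.48 ± 0.041, adjusted p = 1.0e-10). ITGB6, an integrin that activates latent TGF-beta, had -0.29 ± 0.037 (adjusted p = 1.5e-07), with 58.0% of its span overlapped. CCN2, connective tissue growth factor, had -0.47 ± 0.078 (adjusted p = 0.0069; 0.0770 without untreated library 3). The list shares SKIL, PMEPA1, LTBP3, LTBP2 and BAMBI with the role lists. JUNB, CDKN2B and SNAI2 were listed at 0 throughout, JUNB and CDKN2B with their whole span overlapped by other genes and SNAI2 with none.

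Genes known to respond to BMPs, which signal through the same SMAD4, gave 2 falls among 7 tested, 28.6% called beside 43.4% of all tested genes. Of all tested genes, 21.7% fell. ID3, an inhibitor of differentiation factors, had 1245 and 1363 normalized reads under DETA/NO, against 1558, 1683 and 1886 in untreated cells (log2 fold change -0.39 ± 0.072, adjusted p = 0.00091). HEY1, a transcriptional repressor, had 43.2 and 36.1 normalized reads under DETA/NO, against 65.0, 63.8 and 66.5 without it (-0.71, adjusted p = 0.0031), and is named because its values were seen. By limma 0 of the 7 rose, also at an unadjusted p under 0.05, and by DESeq2 0 rose. By edgeR 1 rose: ID4, another of the ID family, with 0.27 and an adjusted p of 0.0034, beside 0.26 in limma. With DETA/NO library 3 left out, the log2 fold change of ID4 was 0.43. Limma also called ID4 with the replicate number as a block (0.30 and 0.32 with the shared library as number 1 or 2). In that fit the untreated library without a partner adds nothing to the difference. These values thus equal those without untreated library 2 or 1, where limma did not call ID4 (adjusted p = 0.37 and 0.24). Limma called ID2 higher without untreated library 3.

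Markers of other cell types were counted beside these matrix genes. The 10 fibroblast markers summed to 864 and 854 normalized reads under DETA/NO and 607 to 658 in untreated cells, nearly all of it COL1A1. Without COL1A1 the sums were 22.2 and 18.04 under DETA/NO and 27.5 to 40.1 in untreated cells. THY1 and POSTN were at 0 in every library and LUM at 0 in all but 1. Other genes overlap the whole span of THY1, so its 0 cannot be read as its level, and they overlap none of POSTN. The 7 immune markers summed to 463 and 532 under DETA/NO and 955 to 1032 without it, mostly from CD14. CD68 was at 0 in every library, but other genes overlap its whole span, so that 0 cannot be read as its level. Among the immune markers PTPRC rose by 1.33 and CD14 had -1.15. The 5 endothelial markers summed to 522 and 577 under DETA/NO and 332 to 368 in untreated cells. By limma 3 of them (CDH5, KDR and TEK) were called higher, beside 21.7% of all tested genes. TEK had an untreated mean of 5.69 and passed the filter of 10 through the DETA/NO libraries (mean 21.1). VWF (log2 fold change 0.40, adjusted p = 0.26) and PECAM1 (-0.16, adjusted p = 0.49) were not called. The part of these markers in the results above was not tested.

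Among 11533 other genes with a mean of at least 100, the profiles over the 5 libraries closest to that of INHBA were those of SYT14, CYP1A1, IL7R, DKK1 and MYO7B. Their Euclidean distances to INHBA, over log2 values centred on each gene's mean, were 0.186, 0.308, 0.314, 0.358 and 0.365. SYT14, a synaptotagmin, had 443 and 385 normalized reads under DETA/NO, against 62.1, 51.0 and 47.1 in untreated cells. IL7R, the interleukin 7 receptor alpha chain, had 1261 and 1175, against 204, 209 and 150. DKK1, a secreted WNT antagonist, had 1313 and 1142, against 221, 204 and 213. With 5 libraries in 2 groups, the likeness is mostly that of the step between the groups.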

How the data were processed

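RNA sequencing libraries of MDA-MB-468 total RNA were made with the KAPA RNA Hyper Prep kit, per the labels' protocols. The 6 deposited tables hold a signal per gene, the read count divided by a scaling factor of the library. The submitters' processing notes name the build GRCh38, the aligners Bowtie2 2.5.0.0 and TopHat2 2.1.1, the counter featureCounts 2.0.3 of Subread, and DESeq2 1.38.3 in R 4.2.2, besides deepTools 3.5.1, MultiQC 1.14 and FastQC 0.11.9. The annotation and strand setting are not given in the sources used here. All deposited values (100% in each library) were whole multiples of 1 step (tolerance 0.01), so whole reads were recovered. A header inside the identical tables of DETA/NO samples 1 and 2 named the same library, with the letter B that untreated sample 2 also carries, and groups came from the sample titles. Row names had turned into dates in 27 cases per file (at most 0.249% of the signal).

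The test was limma 3.58.1 (R 4.3.3) on log2(value + 1) with its trend and robust options, run on genes that averaged at least 10, with Benjamini-Hochberg adjustment over all 16409 genes. On the recovered reads edgeR 4.0.16 called 7001 genes and DESeq2 1.42.0 called 5342, beside 7120 in limma. The alternatives were TMM scaling, a pseudocount of 5, other filters, each library left out in turn, and the replicate number as a block. Other steps ran in Python 3.11.15 with scipy 1.17.1 and pandas 2.3.3. Positions come from GENCODE release 29, with 41055 row names matched, and levels per kb need at least 500 exon bases outside other genes' spans. Poisson intervals cover counting error only.

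The members and gene lists were chosen with earlier results of these data known. The values of 2 listed genes are not reported here. Named genes are the members; in each list, called genes whose higher group averaged at least 100, up to 5 in each direction by smallest adjusted p; other ligands and receptors with an untreated mean of at least 1000; the 5 genes most like INHBA; and 6 neighbours on each side of SMAD4. The labels do not say that samples came from separate cultures, so the spread behind a p-value may be technical.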

Additional observations from a re-analysis of the deposited data

How the results depend on the processing

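Across the alternatives, 4759 to 7213 genes were called, beside 7120. The count of members called higher stayed at 4 or 5, and that of members lower was 1, but 0 in DESeq2, in limma without trend and robust options and with the replicate block (shared DETA/NO library as number 1), and 0 to 1 when 1 library was left out. Without DETA/NO library 1 and 2 that 1 was SMAD4 (-0.92), while ACVR2A lost its call there. It also lost it when untreated library 2 or DETA/NO library 3 was left out. Other pathway genes gave 13 to 19 higher and 6 to 8 lower, and activin and TGF-beta responsive genes 7 to 9 higher and 3 to 6 lower. Of 641 values of named genes under alternatives, 603 kept their direction and their side of the threshold, 26 lost the call, 7 gained it and 5 changed sign. The sign changed for FSTL3 (-0.0605) and ACVR1B (0.00200) with the shared library as number 1 in the block and without untreated library 2. Those settings give the same estimate, since untreated library 2 has no partner in that block, and both are counted. For SMAD4 (0.0172) the sign changed without DETA/NO library 3. With 1 library left out, the log2 fold change ran from -0.0605 to 0.16 for FSTL3, from -0.0336 to 0.00200 for ACVR1B and from -0.92 to 0.0172 for SMAD4 (-0.53 without untreated library 2). The log2 fold change of FST ran from 1.94 to 3.14 with 1 library left out. FST lost its call without untreated library 2 and in limma without trend and robust options. ENG, BMPR2, PMEPA1, SKIL, ID3, SNAI1 and COL4A1 also lost theirs in that limma fit, and COL4A1 lost it in DESeq2 (adjusted p = 0.127). Correlations of deviations from the group means, between DETA/NO and untreated libraries, lay between -0.0301 and 0.0301. With 2 DETA/NO libraries these values mirror each other, so whether the replicate numbers pair the libraries cannot be told. With the block, 6605 genes were called with the shared library as number 1 and 6321 as number 2, the number that the file header points to, added after seeing the data; BMPR2 lost its call and BAMBI gained one. When a DETA/NO library was left out, the lone one was assumed to vary like the untreated libraries. The causes were not tested. FST and SMAD4 rest on 3 to 47 reads a library, which limits both, and 2 DETA/NO libraries limit every result.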
